A study of Arabidopsis thaliana with 18 samples.

Results

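The 10 genes followed here are nitrate transporter genes of Arabidopsis thaliana. They were chosen by locus identifier: NRT1.1 (AT1G12110), NRT1.5 (AT1G32450), NRT1.7 (AT1G69870), NRT1.8 (AT4G21680), NRT1.9 (AT1G18880) and NPF1.2 (AT1G52190) of the NRT1 (NPF) family, NRT2.5 (AT1G12940), NRT2.6 (AT3G45060) and NRT2.7 (AT5G14570) of the NRT2 family, and NRT3.1 (AT5G50200). The list was drawn up by family with earlier results of these data known, and the 10 genes stand among 32744 in the deposited tables. Rosettes at Boyes stage 5.10 were collected from potting soil cultures of era1 and wild type (WT) plants supplied with nitrate at 0, 2 or 10 mM, which gave 6 groups of 3 libraries. In order, the groups were era1 at 0, 2 and 10 mM and WT at 0, 2 and 10 mM. The era1 plants are labelled as an insertional T-DNA knock-out, 1 line with no complemented control. ERA1 is the gene of the farnesyltransferase beta subunit, part of the enzyme that attaches a farnesyl lipid to target proteins, and the study's title names adaptation to low nitrogen as its question. The labels give no ecotype for either genotype. The 3 libraries of a group are given as biological replicates, and no label says whether each came from separate plants. P-values therefore rest on the variation among these libraries, which may be technical.

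Plants take up nitrate with transporters of the NRT1 (NPF) family, most of them of low affinity, and with high-affinity NRT2 transporters, most of which need the small membrane protein NRT3.1 to work. Other members move nitrate inside the plant: into and out of the xylem, into the phloem of source leaves for export to younger leaves, and into the vacuole. In Arabidopsis the transcripts of several of these genes are known to change with nitrate supply and with nitrogen starvation.

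Each library held 4748044 to 6306900 reads counted on genes. CPM here are read counts put on a common scale of sequencing depth. ERA1 (AT5G40280) lay between 1.06 and 2.73 CPM in the 9 era1 libraries, against 8.69 to 11.8 CPM in the 9 WT libraries. A different locus, AT5G66470, is printed in the genotype label, and it averaged 17.0 ± 3.22 CPM in era1 and 27.4 ± 5.41 CPM in WT at 0 mM (SD, n = 3 each). The morning clock genes LHY and CCA1 separated the doses in both genotypes. LHY averaged 723, 35.9 and 432 CPM in era1 at 0, 2 and 10 mM, and 740.0, 29.4 and 477 CPM in WT. The part of this clock difference in the dose differences reported here was not tested, because the labels give no time of harvest. Within a dose, the log2 fold change of LHY in era1 over WT was -0.03 ± 0.07 with no nitrate, 0.29 ± 0.10 at 2 mM and -0.14 ± 0.07 at 10 mM. At an edgeR FDR under 0.05, 1 of the 2 clock genes, CCA1, was higher in era1 at 0 mM (24.5% of all genes tested). At 2 mM 1 of 2 was higher (10.9% of all genes), and at 10 mM 0 of 2 differed (29.7% of all genes did). Reads that could not be aligned uniquely made up 4.34% to 5.33% of a library at 0 mM, 4.48% to 5.03% at 2 mM and 1.89% to 2.81% at 10 mM. The libraries had the markers of a rosette: the 4 leaf markers summed to between 5827 and 12727 CPM in each library, and the 5 seed storage markers to at most 0.185 CPM. Of the 7 root markers, PYK10 held most of the signal, and the list summed to between 7.58 and 63.5 CPM.

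The genotype comparison asks which transporters differ between the era1 line and WT. NRT1.5, NRT1.7 and NRT3.1 were higher in era1 than in WT at all 3 doses, and NPF1.2 was lower in era1 at 0 and 2 mM. NRT1.8 was higher in era1 at 0 mM, and NRT2.7 was lower there. NRT2.5 and NRT2.6 had most of their counts in the era1 libraries at 0 mM. In whole rosettes, fewer cells of a type and less RNA per cell cannot be told apart. Differences were tested with edgeR's quasi-likelihood test and called at a Benjamini-Hochberg FDR under 0.05 over 18358 genes. NRT2.5 and NRT2.6 passed the filter on low counts only through the era1 libraries at 0 mM, so counts of genes are given over the other 8. These 2 are described by their values, with no test of a comparison that holds those libraries. At 0 mM, 4 of the 8 were higher in era1 and 2 lower, where 49.1% of all genes tested were called, 24.5% higher and 24.6% lower. The median log2 fold change of the 8 was 0.40, against 0.02 over all genes. At 2 mM, 3 were higher and 1 lower (10.9% and 11.1% of all genes, 22% in either direction), with a median of 0.41 against -0.01 over all genes. At 10 mM, 3 were higher and 0 lower (15.4% and 14.3% of all genes, 29.7% in either direction; DESeq2 also gave 0 lower, and 0 of the 8 had a negative change at an unadjusted p under 0.05), with a median of 0.24 against 0.01. Averaged over the doses, 3 were higher (NRT1.5, NRT1.7 and NRT3.1) and 2 lower (NPF1.2 and NRT1.9), where 47.1% of all genes were called, 23.8% higher and 23.3% lower. NRT1.9 had a log2 fold change of -0.34 ± 0.11 in that average (FDR = 0.011), although it was called at no single dose.

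**Figure D1:**
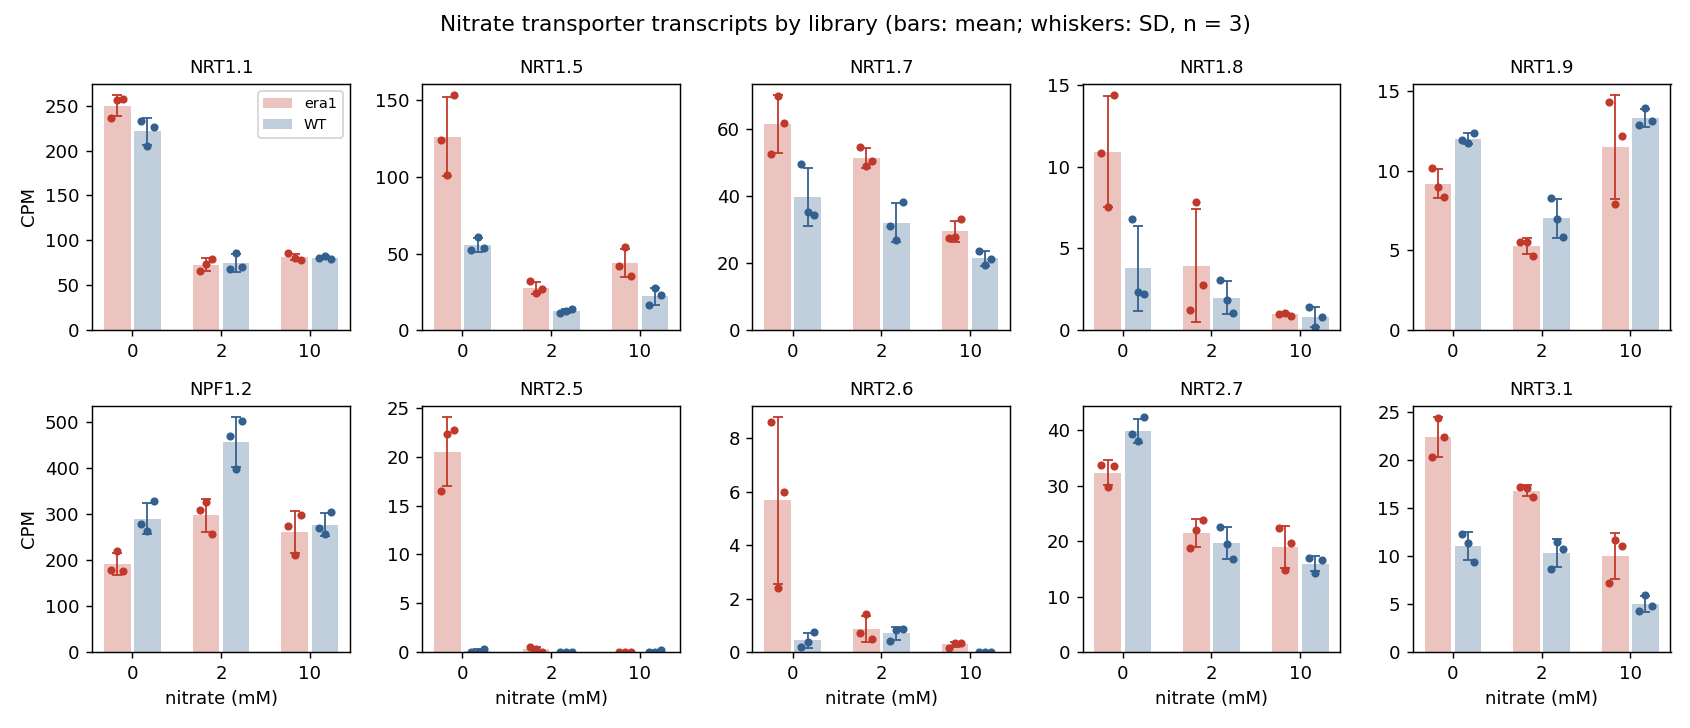
Transcript level of each transporter gene (vertical axis, CPM, linear and starting at 0) at 0, 2 and 10 mM nitrate, with era1 left of WT at each dose. Points are libraries, bars are means and whiskers are SD (n = 3). NRT2.5 lies between 16.5 and 22.7 CPM in the era1 libraries at 0 mM and at most at 0.537 CPM in every other library.

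The dose comparisons ask how the transporters differ between nitrate doses within a genotype. The doses also differed in LHY and CCA1 and in the share of reads not aligned uniquely. The part of these in the dose differences was not tested, and no time of harvest is given. NRT1.1, NRT1.5, NRT1.7, NRT1.8, NRT2.7 and NRT3.1 were higher at 0 than at 10 mM in era1 and in WT. In era1, 6 of the 8 were thus called higher at 0 mM and 1 lower, NPF1.2, where 55.5% of all genes tested were called, 27.5% higher and 28% lower. The median log2 fold change was 1.115 over the 8 and 0.00 over all genes. In WT, 6 of the 8 were higher and 0 lower, where 53.6% of all genes were called, 26.9% higher and 26.7% lower; DESeq2 also gave 0 lower, and 0 of the 8 had a negative change at an unadjusted p under 0.05. The WT median was 1.22 over the 8 and 0.01 over all genes.

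At 2 against 10 mM the 8 genes moved both ways. In era1, 3 were higher (NRT1.7, NRT1.8 and NRT3.1) and 2 lower (NRT1.5 and NRT1.9), where 52% of all genes were called, 25.5% higher and 26.5% lower. In WT, 3 were higher (NRT1.7, NPF1.2 and NRT3.1) and the same 2 were lower, where 57.1% of all genes were called, 28.8% higher and 28.3% lower. At 0 against 2 mM, 6 were higher and 1 lower in era1 (23.7% and 26% of all genes, 49.7% in either direction). In WT, 4 were higher and 1 lower (20.3% and 22.1% of all genes, 42.4% in either direction), and the lower gene was NPF1.2 in both genotypes. The comparisons share libraries: each dose of a genotype enters 2 dose comparisons and 1 genotype comparison.

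**Figure D2:**
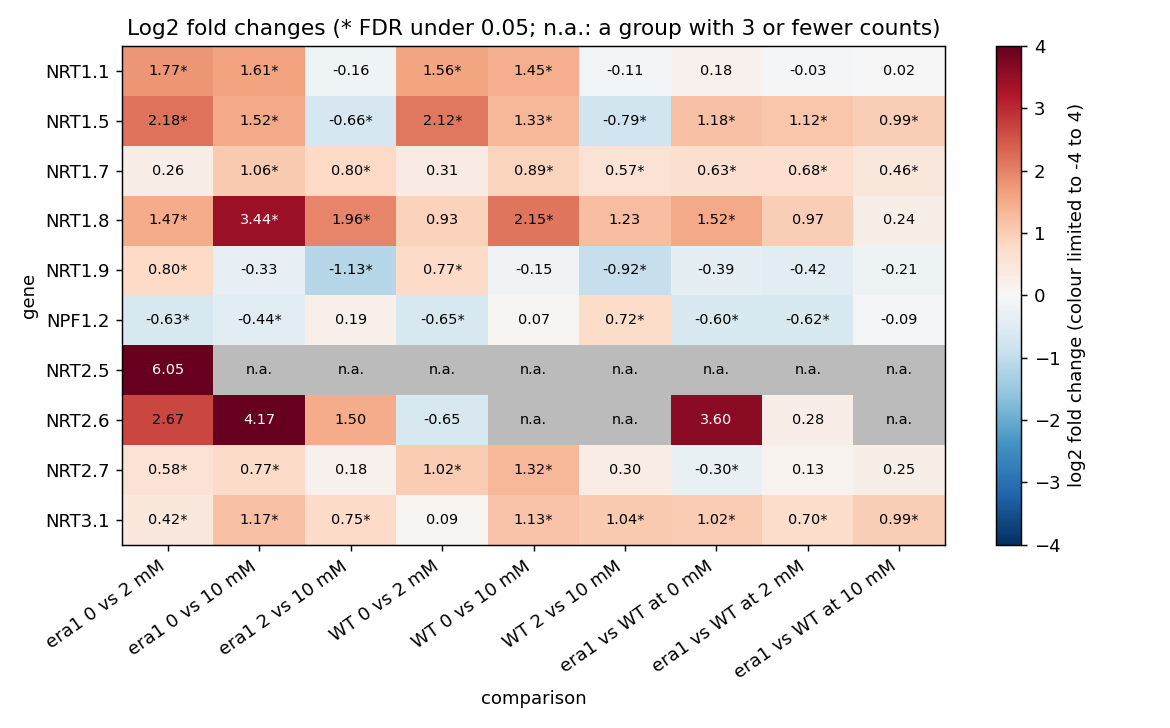
Log2 fold change of each gene (rows) in 6 dose comparisons and 3 genotype comparisons (columns), printed in each cell, with an asterisk for an edgeR FDR under 0.05 and n.a. where a group held 3 or fewer counts. No asterisk is given for NRT2.5 and NRT2.6 in columns that hold era1 at 0 mM. The NRT1.5, NRT1.7 and NRT3.1 rows are positive and called in all 3 genotype columns, and the NRT1.1 row is called in neither 2 against 10 mM column and no genotype column.

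Among the uptake transporters, NRT1.1 is the dual-affinity transporter that also acts as a nitrate sensor. NRT1.1 in era1 was at 237, 256 and 257 CPM at 0 mM, 65.5, 74.3 and 79.5 CPM at 2 mM and 85.7, 80.9 and 78.6 CPM at 10 mM. The WT levels were 233, 205 and 226 CPM at 0 mM, 68.3, 86.1 and 69.8 CPM at 2 mM and 80.7, 82.2 and 79.7 CPM at 10 mM. All 6 libraries without nitrate lay above all 12 libraries with it, and the levels at 2 and 10 mM overlapped. In both genotypes the NRT1.1 means had the order of the LHY means, 0, then 10, then 2 mM. The part of the clock difference in the NRT1.1 levels was not tested. The log2 fold change at 0 against 10 mM was 1.61 ± 0.09 in era1 (FDR = 8.0e-14) and 1.45 ± 0.09 in WT (FDR = 3.5e-12). At 2 against 10 mM it was -0.16 ± 0.09 in era1 and -0.11 ± 0.09 in WT, and neither passed the test, although the WT difference did without WT replicate 2 at 2 mM (-0.23, FDR = 0.047). The 3 era1 libraries at 0 mM lay just above the 3 WT ones, a log2 difference of 0.18 ± 0.08 that did not pass (FDR = 0.077).

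NRT2.5 is a high-affinity transporter known for nitrate uptake and phloem loading in nitrogen-starved Arabidopsis. It had 94, 139 and 144 counts in the era1 libraries at 0 mM, against 0, 0 and 2 counts in WT at 0 mM. The era1 libraries had 3, 2 and 0 counts at 2 mM and 0 in each at 10 mM. The WT libraries had 0 in each at 2 mM and 0, 0 and 1 at 10 mM. The transcript was thus measured at a level above a few reads in era1 without nitrate and in no other group, with 20.5 ± 3.505 CPM (SD, n = 3). The ratio of CPM in era1 over WT at 0 mM, from summed counts, was 163 with a 95% exact counting interval of 44.8 to 1352. This rested on 2 counts in WT replicate 3: with that library left out, WT has 0 counts at 0 mM, and the fitted log2 fold change, which is no bound, was 9.79 in place of 7.103. Within era1 the level at 0 mM was 118-fold higher than at 10 mM, with a floor of 3 counts in place of the 0 over the group at 10 mM. Against 2 mM the ratio was 71.8 (30.5 to 222), and the fitted log2 fold change of 6.05 became 6.74 without replicate 1 at 2 mM and 5.45 without replicate 3. Counting intervals cover counting error only, and a fold over a floor leaves out the counting error of the other group. No use of molecular identifiers is given in the sources used here.

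NRT2.6 is a related transporter that in Arabidopsis has been tied to the response to a bacterial pathogen more than to nitrate uptake. It had 49, 15 and 38 counts in era1 at 0 mM, against 1, 2 and 4 in WT at 0 mM. In era1 it had 4, 8 and 3 counts at 2 mM and 1, 2 and 2 at 10 mM. In WT it had 2, 4 and 4 counts at 2 mM and 0 in each library at 10 mM. The 3 era1 libraries at 0 mM stood above all others, with a spread of 2.41 to 8.59 CPM among them. The ratio of era1 over WT at 0 mM was 12.6 (5.904 to 32.2). Within era1 the ratio of 0 over 10 mM was 19.2 (7.97 to 60.4) and that of 0 over 2 mM was 6.47 (3.75 to 12.0). With a floor of 3 counts in place of the 0 at 10 mM, the WT level was 2.121-fold higher at 0 mM and 3.40-fold higher at 2 mM. These values rest on 7 and 10 counts, whose counting error they leave out. NRT2.6 could be tested between WT groups only because the era1 libraries at 0 mM carried it past the filter. The edgeR call at 0 against 10 mM in WT (FDR = 0.038) rested on 7 and 0 counts. It was lost without WT replicate 2 or 3 at 0 mM, or without any WT replicate at 10 mM (FDR between 0.054 and 0.12).

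NRT3.1 is the partner protein that NRT2 transporters need at the plasma membrane. NRT3.1 in era1 was at 20.3, 24.4 and 22.4 CPM at 0 mM, 17.2, 17.1 and 16.1 CPM at 2 mM and 7.25, 11.6 and 11.1 CPM at 10 mM. WT libraries had 12.3, 11.4 and 9.43 CPM at 0 mM, 8.71, 11.5 and 10.8 CPM at 2 mM and 4.29, 5.996 and 4.79 CPM at 10 mM. At each dose every era1 library was above every WT library, and the era1 level at 10 mM overlapped the WT levels at 0 and 2 mM. At 0 mM the log2 fold change of NRT3.1 in era1 over WT was 1.02 ± 0.15 (FDR = 4.2e-06). The same value was 0.70 ± 0.16 among the 2 mM libraries (FDR = 0.0025) and 0.99 ± 0.20 among the 10 mM libraries (FDR = 6.6e-04). Against 10 mM, NRT3.1 was higher at 0 mM by 1.17 ± 0.15 in era1 and 1.13 ± 0.20 in WT, and at 2 mM by 0.75 ± 0.16 in era1 and 1.04 ± 0.21 in WT. Its difference of 0.42 ± 0.14 between 0 and 2 mM in era1 (FDR = 0.015) did not pass in DESeq2 (adjusted p = 0.062), nor without era1 replicate 2 at 0 mM (FDR = 0.065) or replicate 3 at 2 mM (FDR = 0.052).

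NRT2.7 is the NRT2 member of the vacuolar membrane, known for loading nitrate into seeds. NRT2.7 in era1 was at 33.8, 29.7 and 33.6 CPM at 0 mM, 18.8, 22.0 and 23.9 CPM at 2 mM and 22.4, 14.8 and 19.7 CPM at 10 mM. WT libraries had 39.3, 38.0 and 42.3 CPM at 0 mM, 22.6, 19.5 and 16.8 CPM at 2 mM and 17.0, 14.3 and 16.7 CPM at 10 mM. The libraries without nitrate were above all others in both genotypes, and at 0 mM the 3 WT libraries lay above the 3 era1 libraries. At 0 against 10 mM the log2 fold change was 0.77 ± 0.13 in era1 and 1.32 ± 0.14 in WT (FDR = 2.1e-05 in era1 and 1.9e-08 in WT). The test of the difference between these 2 responses gave -0.55 ± 0.19 (era1 minus WT, FDR = 0.028). It was lost in DESeq2 (adjusted p = 0.051) and without any of 5 libraries: era1 replicate 2 at 0 mM, era1 replicates 1 and 3 at 10 mM, WT replicate 3 at 0 mM and WT replicate 2 at 10 mM. The lower level in era1 at 0 mM, -0.30 ± 0.12 (FDR = 0.039), was likewise lost in DESeq2 (adjusted p = 0.063) and without era1 replicate 2 or 3 or WT replicate 1 or 3 at 0 mM (FDR between 0.055 and 0.14).

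A pair of the genes act at the xylem, the stream that carries nitrate from the root to the shoot. NRT1.5 releases nitrate into the xylem of the root, and its transcript was also counted in these rosettes. NRT1.5 in era1 was at 124, 102 and 153 CPM at 0 mM, 32.0, 24.3 and 27.1 CPM at 2 mM and 42.0, 54.1 and 35.6 CPM at 10 mM. The WT levels were 52.3, 60.9 and 53.8 CPM at 0 mM, 11.5, 12.7 and 14.0 CPM at 2 mM and 16.3, 27.6 and 22.7 CPM at 10 mM. Each era1 library was above every WT library of its dose, and in both genotypes the order of the doses was 0, then 10, then 2 mM. The means of LHY had the same order, and the part of the clock difference in these NRT1.5 levels was not tested. At 0 mM the log2 fold change of NRT1.5 in era1 over WT was 1.18 ± 0.14 (FDR = 2.5e-07). The same value was 1.1204 ± 0.21 among the 2 mM libraries (FDR = 2.4e-04) and 0.99 ± 0.18 among the 10 mM libraries (FDR = 1.6e-04). NRT1.5 was higher at 0 than at 10 mM by 1.52 ± 0.15 in era1 and 1.33 ± 0.17 in WT (log2). It was higher at 0 than at 2 mM by 2.18 ± 0.16 in era1 and 2.122 ± 0.19 in WT. Relative to 10 mM it was lower at 2 mM, with -0.66 ± 0.17 in era1 and -0.79 ± 0.22 in WT (FDR = 0.0018 in era1 and 0.0032 in WT). These NRT1.5 calls held in each fit that left out 1 library. It overlaps PKp3 on the opposite strand by 16 bases in the RefSeq TAIR10.1 annotation, and PKp3 was lower in era1 at 0 mM (-0.58 ± 0.11, FDR = 1.5e-04).

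NRT1.8 does the reverse step and removes nitrate from the xylem sap. NRT1.8 in era1 was at 10.9, 7.55 and 14.4 CPM at 0 mM, 1.25, 7.85 and 2.74 CPM at 2 mM and 1.01, 1.06 and 0.893 CPM at 10 mM. WT libraries had 6.80, 2.35 and 2.22 CPM at 0 mM, 3.05, 1.85 and 1.08 CPM at 2 mM and 1.43, 0.214 and 0.833 CPM at 10 mM. The gene had 385 counts over all 18 libraries, and single libraries stood apart: replicate 1 of WT at 0 mM and replicate 2 of era1 at 2 mM were well above their partners. The era1 libraries at 0 mM were nevertheless above the WT libraries, and the log2 fold change was 1.52 ± 0.40 (FDR = 0.003), or 2.24 without that WT replicate. At 0 against 10 mM it was 3.44 ± 0.51 in era1 (FDR = 3.9e-06) and 2.15 ± 0.68 in WT (FDR = 0.0099). The WT value became 1.45 without replicate 1 at 0 mM (FDR = 0.11), 2.79 without replicate 1 at 10 mM, and 1.73 without replicate 2 at 10 mM (FDR = 0.052). Without era1 replicate 2 at 2 mM, the difference of 1.96 ± 0.61 between 2 and 10 mM in era1 became 1.02 (FDR = 0.2), and that of 1.47 ± 0.39 between 0 and 2 mM became 2.42. The difference between 0 and 2 mM in era1 also missed the threshold in DESeq2 (adjusted p = 0.055). NRT1.8 overlaps CPL1 on the opposite strand by 44 bases, and CPL1 moved the same way in era1 at 0 against 10 mM (0.78 ± 0.15, FDR = 7.7e-05).

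Markers of the vascular tissues were counted beside these genes. Of all genes tested, 49.1% were called between genotypes at 0 mM (24.6% lower in era1). The share was 22% at 2 mM (11.1% lower) and 29.7% at 10 mM (14.3% lower). The xylem markers XCP1, XCP2 and IRX3 were lower in era1 at 0 mM in 3 of 3 cases, with summed levels of 13.4 to 22.3 CPM in era1 and 60.1 to 64.8 CPM in WT. At 2 mM 3 of 3 were also lower in era1, at 29.0 to 40.7 CPM in era1 and 62.7 to 88.8 CPM in WT, and at 10 mM edgeR called 0 of 3 (1, IRX3, at an unadjusted p under 0.05), at 38.3 to 48.6 CPM in era1 and 48.4 to 60.2 CPM in WT. Of the phloem companion cell markers SUC2, APL and AHA3, edgeR called 0 of 3 between genotypes at any dose, also at an unadjusted p under 0.05, with sums of 235 to 326 CPM in era1 and 253 to 349 CPM in WT. The 4 leaf markers were lower in era1 at 0 mM in 4 of 4 cases, at 5827 to 6512 CPM in era1 and 10958 to 12021 CPM in WT. At 2 mM 3 of 4 were lower in era1, at 9721 to 10250.0 CPM in era1 and 12045 to 12727 CPM in WT, and at 10 mM 1 of 4 was, at 7242 to 8137 CPM in era1 and 8391 to 8625 CPM in WT. The root marker PYK10, the only 1 of the 7 counted well enough to be tested, was also lower in era1 at 0 mM (-1.26 ± 0.30, FDR = 0.0012). At that dose 5 of the 7 root markers had 0 counts in era1 and 3 of the 7 in WT. Of the 8 genes, NRT1.5, NRT1.7, NRT1.8 and NRT3.1 were higher in the era1 libraries at 0 mM, and NPF1.2 and NRT2.7 were lower. The xylem markers, the leaf markers and PYK10 were also lower there, while the phloem companion cell markers were not called. NRT2.5 and NRT2.6, which are not among the 8, had most of their counts there. The part of these marker differences in the levels of the transporters was not tested.

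The markers were also compared between doses, where many genes of any kind were called. At 0 against 10 mM, 27.5% of all genes were higher and 28% lower in era1, and 26.9% and 26.7% in WT. At 2 against 10 mM the shares were 25.5% and 26.5% in era1, and 28.8% and 28.3% in WT. In era1, 3 of 3 xylem markers, 3 of 4 leaf markers and PYK10 were lower at 0 than at 10 mM, and 1 leaf marker was higher. In WT at 0 against 10 mM, 1 of 3 xylem markers and 3 of 4 leaf markers were higher, and 1 leaf marker was lower. At 2 against 10 mM, 4 of 4 leaf markers were higher in era1 and 3 of 4 in WT. For the xylem markers the same comparison gave 2 of 3 lower in era1, and 2 higher and 1 lower in WT. Of the phloem companion cell markers, 1 of 3 was higher at 0 than at 10 mM and 2 of 3 at 2 than at 10 mM, in era1 and in WT alike. The part of these markers in the dose differences of the transporters was not tested. Flower markers summed to 0.715 to 7.39 CPM, with 1 of 5 counted well enough to be tested.

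Among the genes that act at the phloem, NRT1.7 loads nitrate in the minor veins of older leaves for export to younger ones. NRT1.7 in era1 was at 52.6, 69.7 and 61.6 CPM at 0 mM, 54.6, 48.7 and 50.3 CPM at 2 mM and 27.5, 27.7 and 33.1 CPM at 10 mM. The WT levels were 49.5, 35.1 and 34.4 CPM at 0 mM, 30.9, 26.7 and 38.2 CPM at 2 mM and 23.7, 19.3 and 21.2 CPM at 10 mM. At each dose the era1 libraries lay above the WT libraries, and in both genotypes the libraries at 0 and 2 mM lay above those at 10 mM. At 0 mM the log2 fold change of NRT1.7 in era1 over WT was 0.63 ± 0.13 (FDR = 3.1e-04). The same value was 0.68 ± 0.14 among the 2 mM libraries (FDR = 7.5e-04) and 0.46 ± 0.16 among the 10 mM libraries (FDR = 0.03). The call at 10 mM was lost without era1 replicate 3 (FDR = 0.14), WT replicate 2 (FDR = 0.13) or WT replicate 3 (FDR = 0.076). Against 10 mM, NRT1.7 was higher at 0 mM by 1.06 ± 0.13 in era1 and 0.89 ± 0.15 in WT, and at 2 mM by 0.80 ± 0.14 in era1 and 0.57 ± 0.16 in WT.

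NPF1.2, also called NRT1.11, passes nitrate from xylem to phloem in the petioles of expanded leaves. NPF1.2 in era1 was at 178, 220.1 and 177 CPM at 0 mM, 308, 327 and 257 CPM at 2 mM and 275, 211 and 297 CPM at 10 mM. WT libraries had 279, 263 and 329 CPM at 0 mM, 471, 397 and 502 CPM at 2 mM and 271, 256 and 305 CPM at 10 mM. The era1 libraries lay below the WT libraries at 0 and 2 mM and overlapped them at 10 mM, and the WT libraries at 2 mM were the highest. At 0 mM the log2 fold change of NPF1.2 in era1 over WT was -0.60 ± 0.12 (FDR = 2.1e-04). The same value was -0.62 ± 0.12 among the 2 mM libraries (FDR = 3.6e-04) and -0.09 ± 0.12 among the 10 mM libraries (FDR = 0.62). At 0 against 10 mM it was lower in era1, -0.44 ± 0.12 (FDR = 0.0031), while the WT value was 0.07 ± 0.12, and the test of the difference gave -0.51 ± 0.17 (FDR = 0.021). At 2 against 10 mM the era1 value was 0.19 ± 0.12 and the WT value 0.72 ± 0.12 (FDR = 1.4e-05), with a difference of -0.53 ± 0.17 (FDR = 0.032). Both tests of the difference were lost when single libraries were left out: that at 0 against 10 mM without era1 replicates 1 or 3 at 0 mM, era1 replicates 1 or 3 at 10 mM, WT replicate 3 at 0 mM or WT replicate 2 at 10 mM (FDR between 0.054 and 0.079), and that at 2 against 10 mM without era1 replicate 3 at 2 mM, era1 replicates 1 or 3 at 10 mM, WT replicates 1 or 3 at 2 mM or WT replicates 1 or 2 at 10 mM (FDR between 0.071 and 0.11).

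NRT1.9 carries nitrate into the phloem of the root. NRT1.9 in era1 was at 10.2, 8.99 and 8.37 CPM at 0 mM, 5.55, 5.53 and 4.68 CPM at 2 mM and 14.3, 7.94 and 12.1 CPM at 10 mM. The WT levels were 11.9, 11.8 and 12.4 CPM at 0 mM, 8.27, 6.99 and 5.82 CPM at 2 mM and 12.9, 13.9 and 13.1 CPM at 10 mM. The libraries at 2 mM were the lowest in both genotypes, and era1 replicate 2 at 10 mM lay below its partners. The mean of LHY was also lowest at 2 mM, and its part in the NRT1.9 levels was not tested. At 2 against 10 mM the log2 fold change was -1.13 ± 0.19 in era1 (FDR = 2.1e-05) and -0.92 ± 0.19 in WT (FDR = 2.1e-04), and 0 mM was above 2 mM by 0.80 ± 0.20 in era1 and 0.77 ± 0.19 in WT. The value of -0.33 ± 0.17 in era1 at 0 against 10 mM was not called, but passed at -0.54 without that replicate (FDR = 0.0061). At 0 mM all 3 era1 libraries lay below the WT libraries, but the difference of -0.39 ± 0.17 did not pass over all libraries (FDR = 0.063); it passed when only the 0 mM libraries were fitted (FDR = 0.048) and when era1 replicate 1 at 0 mM or era1 replicate 1 or 2 at 10 mM was left out (FDR between 0.028 and 0.048). In the RefSeq TAIR10.1 annotation NRT1.9 overlaps CDPK1 on the opposite strand by 605 bases, and no source used here says whether the counting used strand, so reads of the 2 genes cannot be fully told apart. CDPK1 was higher at 2 than at 10 mM by 0.83 ± 0.11 in era1 and 0.84 ± 0.12 in WT, the opposite direction to NRT1.9.

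**Figure D3:**
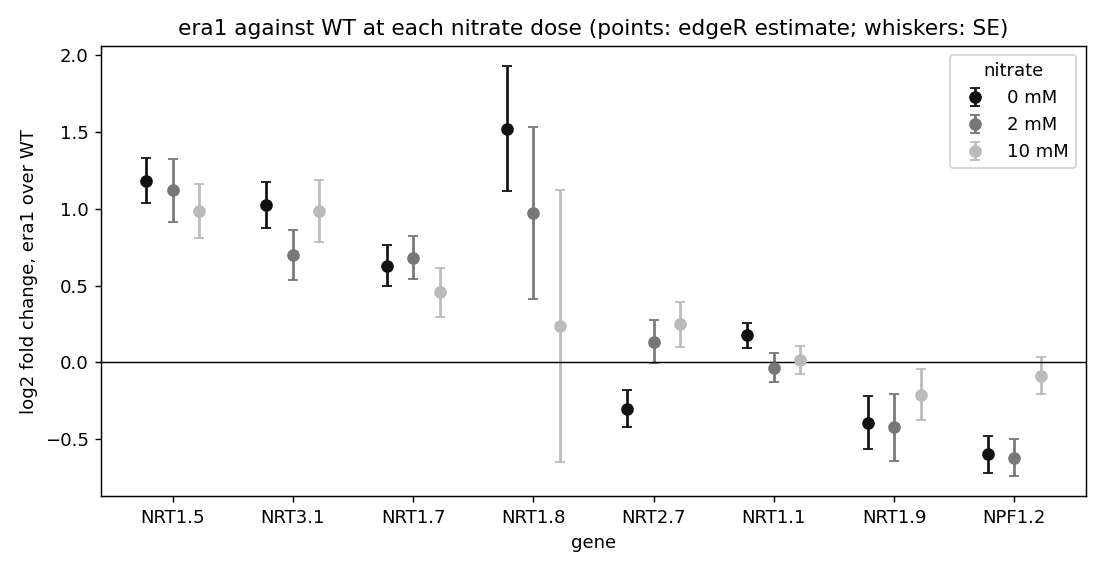
Log2 fold change of era1 over WT (vertical axis) for the 8 genes that did not rest on the era1 libraries at 0 mM alone to pass the filter, at 0, 2 and 10 mM (black to light grey). Points are edgeR estimates and whiskers are SE worked out from edgeR's F statistic. NRT1.5 lies between 0.99 and 1.18 at the 3 doses, while NPF1.2 lies at -0.60, -0.62 and -0.09.

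Whether the dose response differed between genotypes was tested as an interaction. At 0 against 10 mM, 0 of the 8 genes were called with a higher log2 fold change in era1 than in WT and 2 with a lower one (NPF1.2 and NRT2.7), where 34.9% of all genes were called, 15.6% higher and 19.3% lower. At 2 against 10 mM the counts were 0 and 1 (NPF1.2), where 15.8% of all genes were called, 7.7% higher and 8.09% lower. At 0 against 2 mM they were 0 and 0 (9.58% and 13.5% of all genes, 23.1% in either direction); DESeq2 also called 0 there, and 1 of the 8, NRT2.7, was under an unadjusted p of 0.05 in edgeR. None of the 8 was called with a higher value in era1 in DESeq2 or at an unadjusted p under 0.05 in edgeR in the first 2 of these tests. The higher levels of NRT1.5, NRT1.7 and NRT3.1 in era1 were thus not shown to depend on dose. For NRT1.5 the interaction at 0 against 10 mM was 0.20 ± 0.23, for NRT1.7 0.17 ± 0.21 and for NRT3.1 0.04 ± 0.27 (log2).

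The rest of the NRT1 (NPF) family moved both ways. Counts were high enough to test 29 of 47 further NPF loci. At 0 against 10 mM, 9 were higher and 4 lower in era1 (median 0.08, against 0.00 over all genes, of which 27.5% were higher and 28% lower). In WT 13 were higher and 2 lower (median 0.44, against 0.01 over all genes, of which 26.9% were higher and 26.7% lower). Between genotypes, 6 were higher and 7 lower in era1 at 0 mM, where 24.5% of all genes were higher and 24.6% lower. At 2 mM 3 were higher and 6 lower (10.9% and 11.1% of all genes), and at 10 mM 5 were higher and 1 lower (15.4% and 14.3%). AT5G62730 averaged 11.9 ± 2.105, 3.89 ± 1.198 and 1.39 ± 0.316 CPM in era1 at 0, 2 and 10 mM, and 6.13 ± 0.962, 3.84 ± 0.477 and 0.417 ± 0.36 CPM in WT (SD, n = 3). Like NRT1.7 and NRT3.1 it was higher at 0 than at 10 mM in both genotypes, by 3.07 ± 0.27 in era1 and 3.80 ± 0.42 in WT. AT1G22570 and AT1G22550 instead had their highest means at 2 mM. AT1G22570 had 12, 179 and 7 counts over the era1 libraries at 0, 2 and 10 mM. Over the WT libraries it had 0, 131 and 4. With a floor of 3 counts in place of the 0, WT at 0 mM was 49.0-fold lower than at 2 mM. AT1G22550 was lower at 0 than at 2 mM, with log2 fold changes of -2.14 ± 0.27 in era1 and -2.08 ± 0.27 in WT. AT3G45680 was lower in era1 than in WT at 0 mM (-1.85 ± 0.36, FDR = 1.5e-04) and at 2 mM (-2.29 ± 0.44, FDR = 4.3e-04). Of the 4 further NRT2 loci used here, 0 had counts enough to be tested.

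Listed regulators of nitrate transporters, not all of which act on the genes themselves, were followed in the same fit. Of 20 tested, 2 were higher and 8 lower in era1 than in WT at 0 mM, where 24.5% of all genes were higher and 24.6% lower. The median log2 fold change of the 20 was -0.05, against 0.02 over all genes. At 2 mM 2 were higher and 2 lower (10.9% and 11.1% of all genes), and at 10 mM 1 was higher and 4 lower (15.4% and 14.3%). At 0 against 10 mM, 6 were higher and 8 lower in era1 (27.5% and 28% of all genes), and 7 were higher and 10 lower in WT (26.9% and 26.7%). LBD39 encodes a nitrate-induced repressor of nitrate-responsive genes. It averaged 0.442 ± 0.253, 13.8 ± 2.93 and 31.8 ± 3.66 CPM in era1 at 0, 2 and 10 mM, and 13.8 ± 3.19, 21.8 ± 1.505 and 28.7 ± 1.62 CPM in WT. LBD39 was lower in era1 at 0 mM (log2 fold change -4.90 ± 0.33, FDR = 7.9e-12), with no overlap between the genotypes. AT1G25550, listed here by identifier alone, averaged 3.25 ± 0.672, 60.4 ± 5.69 and 41.1 ± 5.82 CPM in era1, and 36.6 ± 3.62, 55.3 ± 7.58 and 64.7 ± 7.51 CPM in WT. It was lower in era1 at 0 mM (log2 fold change -3.49 ± 0.19, FDR = 1.4e-13) and at 10 mM (-0.65 ± 0.12, FDR = 1.8e-04). The change at 0 against 10 mM was lower in era1 than in WT for both genes, by -5.06 ± 0.37 for LBD39 (FDR = 3.9e-10) and -2.84 ± 0.23 for AT1G25550 (FDR = 1.9e-09). The libraries with the least of both, era1 at 0 mM, were also those with 94 to 144 counts of NRT2.5. NRT2.5 passed the filter only through these libraries, and a link between it and the 2 regulators was not tested.

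BT2, a BTB and TAZ domain protein known to lower the expression of NRT2 genes, had 1 count over the era1 libraries at 0 mM and 27 over the WT libraries. The ratio of era1 over WT was 0.0321 (0.000783 to 0.194, 95% exact counting interval). With nitrate it averaged 19.4 ± 4.90 CPM in era1 and 22.3 ± 5.97 CPM in WT at 2 mM, and 8.48 ± 2.92 CPM in era1 and 30.3 ± 10.8 CPM in WT at 10 mM, where it was lower in era1 (log2 fold change -1.84 ± 0.26, FDR = 7.0e-06). HRS1, a nitrate-induced repressor of nitrogen starvation genes, had 0 counts at 0 mM in both genotypes and 28 counts over the era1 and 28 over the WT libraries at 10 mM. With a floor of 3 counts in place of the 0, its level at 0 mM was 9.91-fold lower than at 10 mM in era1 and 10.3-fold lower in WT.

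**Figure D4:**
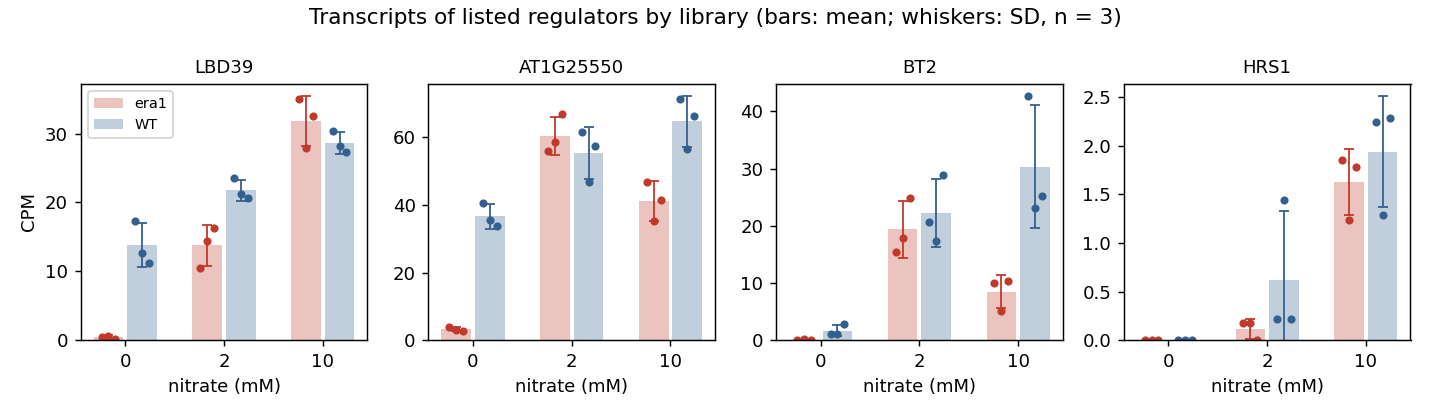
Transcript level (CPM, linear and starting at 0) of LBD39, AT1G25550, BT2 and HRS1 at 0, 2 and 10 mM nitrate, with era1 left of WT at each dose; points are libraries, bars are means and whiskers are SD (n = 3). LBD39 averages 0.442 CPM in era1 and 13.8 CPM in WT at 0 mM, and 31.8 CPM in era1 and 28.7 CPM in WT at 10 mM.

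Genes with patterns most like those of the 4 most variable transporters were sought among 15079 or 15080 genes with a mean of at least 5 CPM, as the root mean square difference of centred log2 CPM over the 18 libraries. NRT2.5 was nearest to AT3G62960 (0.736), NIT4 (0.819) and GLN1;4 (0.946), where the median over all these genes was 2.13. Their mean levels at 0 mM were 53.5, 162 and 85.2 CPM in era1, against 2.71, 16.9 and 8.42 CPM in WT. NIT4 encodes a nitrilase and GLN1;4 a cytosolic glutamine synthetase. NRT2.6 was nearest to AT2G17710 (0.412), GAMMA-VPE (0.539), which encodes a vacuolar processing protease, and ABCB4 (0.601), with a median of 1.304. NRT1.8 was nearest to AT1G80120 (0.709), the amino acid permease gene AAP6 (0.726) and NAM (0.727), with a median of 1.302. NRT1.5 was nearest to AT1G67360 (0.227), AT2G17500 (0.253) and CSLG3 (0.292), with a median of 1.104. These differences describe likeness over the same 18 libraries, and no test was made of them. Each median was close to the SD of that transporter's own log2 values, which is its difference from a gene with no change. A value under the median therefore does not by itself mark a close match. NRT2.5 and NRT2.6 passed the filter only through the era1 libraries at 0 mM and had few counts elsewhere. Likeness to them rests mainly on the level in that group.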

How the data were processed

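Per the labels' protocols, rosette RNA went through polyA selection and stranded single-end QuantSeq 3′ library preparation. The submitters' processing notes name TopHat2 and TAIR10; mapping settings, gene annotation and strand handling during counting were not given in the sources used here. The deposited values are unnormalized read counts, 1 HTSeq-style table a library. Its 5 summary lines belong to no gene and took no part in library sizes or tests (3.75% to 5.72% of reads outside genes, 1.89% to 5.33% not uniquely aligned, 0.116% to 0.141% ambiguous). One tag is counted near each transcript's 3′ end, so levels were not scaled by length and are not compared between genes.

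Counts were tested with edgeR 4.0.16 in R 4.3.3: TMM scaling, filterByExpr by group (minimum count 10, minimum total 15, 18358 genes kept), 1 model with a mean for each of the 6 groups over all 18 libraries, quasi-likelihood tests and Benjamini-Hochberg adjustment over all genes tested per contrast at 0.05. CPM values used the TMM-scaled library sizes. A ± after a log2 fold change is an SE, taken as the absolute log2 fold change over the square root of edgeR's F statistic. Ratios for genes with few counts came from summed counts with exact intervals. Where a group had 0 counts, a floor of 3 counts took its place and no interval was given. Alternatives were DESeq2 1.42.0, other scalings, no filter, nuclear genes only, fewer libraries, a replicate block and leaving out each library. The fit was also run on simulated counts, with the same spread for all genes and few genes changed. That setting is simpler than these data, and no result here rests on it. Of 32744 gene IDs, 32548 matched the RefSeq table, which gave the gene names. The transporters, gene lists and markers were chosen with earlier results of these data known. From each list up to 4 genes with the largest called change are named, and likeness was sought for the 4 transporters with the widest range of group means. Replicates of a group differed by more than sampling noise (chi-square over its degrees of freedom 1.50 to 4.44), so none was merged. NRT3.2 is not used here, and 4 regulators that carry no name in the table are counted and given by identifier.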

Additional observations from a re-analysis of the deposited data

Results flagged for a closer look

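Each result here is a dose response that differed between era1 and WT by the test of the difference itself, as a log2 value of era1 minus WT. NPF1.2 differed at 0 against 10 mM by -0.51 ± 0.17 (FDR = 0.021) and at 2 against 10 mM by -0.53 ± 0.17 (FDR = 0.032). NRT2.7 differed at 0 against 10 mM by -0.55 ± 0.19 (FDR = 0.028). Each of the 3 was lost when at least 1 single library was left out.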

How the results depend on the processing

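Over the 8 transporters that did not need the era1 libraries at 0 mM to pass the filter, 56 of 104 pairs of a gene and a contrast were called, where 15.8% to 57.1% of all genes were called per contrast. Under the alternatives 9 of the 56 lost the call at least once, 8 of them when 1 library was left out, and 0 changed direction; DESeq2 ended 4 of the calls. Of the others, 11 passed in at least 1 alternative. For the interaction of genotype with 0 against 10 mM (34.9% of all genes called), DESeq2 called 1 in place of 2, and leaving out 1 library gave 0 to 2. Leaving out 1 library gave 0 to 1 (against 1) with 2 against 10 mM, and 0 to 1 (against 0) with 0 against 2 mM; the cause was not tested. No other scaling, filter or model alternative moved the number called in a contrast by over 1.5 times. Signs turned only in differences that were not called, some of them large: the NRT1.8 interaction with 2 against 10 mM was 0.73, and -0.21 without era1 replicate 2 at 2 mM. NRT1.1 in era1 against WT at 10 mM was -0.0053 with nuclear genes only and -0.0037 with no filter. With 1 library left out, era1 against WT ranged from -0.0190 to 0.0438 for NRT1.1 at 10 mM, -0.0970 to 0.0866 for NRT1.1 at 2 mM, -0.2452 to 0.5829 for NRT2.6 at 2 mM, -0.2021 to 0.8774 for NRT1.8 at 10 mM and -0.1897 to 0.0437 for NPF1.2 at 10 mM. NPF1.2 in WT at 0 against 10 mM ranged from -0.0206 to 0.1405.

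The replicate numbers did not pair the samples: of 45 pairs of same-numbered libraries, 1 had a correlation of deviations over 0.1 (range -0.10 to 0.14). With a replicate block the numbers called over the 8 genes were 7, 5 and 7 for era1 at 0 against 10, 2 against 10 and 0 against 2 mM, 6, 5 and 5 for WT, and 6, 4 and 3 for era1 against WT at 0, 2 and 10 mM, the same numbers as without it. Depth limits NRT1.8, NRT2.5 and NRT2.6, which had 385, 385 and 139 counts over all libraries.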
